A study of Mus musculus with 6 samples.

Results

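The genes of fatty acid and triglyceride synthesis were followed in livers of mice that lacked Sesn3 and of wild-type mice. The set was a list of 30 gene symbols for citrate export, fatty acid synthesis, acyl-CoA ligation, glycerolipid assembly and their regulators, and all 30 were among the 24421 symbols of the count table. RNA had been sequenced from 6 liver samples, 3 with a Sesn3 knockout (KO) and 3 wild type (WT), of male C57BL/6 mice aged 4 months. Every mouse of both groups had eaten the same diet for 4 weeks, with 40% of its energy as fat, 40% as carbohydrate and 20% as protein, and with cholesterol at 1.25% and sodium cholate at 0.5%. The labels do not say how the Sesn3 allele was made, whether it was deleted in all tissues, or whether each sample was 1 animal, so p-values measure the spread between these samples only. No chow-fed group was among the samples, and every comparison is therefore between genotypes on this diet.

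Hepatocytes make fatty acids from carbohydrate carbon. Mitochondrial citrate is exported and split to acetyl-CoA, acetyl-CoA carboxylase turns this into malonyl-CoA, and fatty acid synthase builds palmitate from both with NADPH. Acyl-CoA ligases activate fatty acids, which are then added stepwise to glycerol 3-phosphate to give lysophosphatidate, phosphatidate, diglyceride and triglyceride. Insulin acting through SREBP-1c (from Srebf1) and glucose acting through ChREBP (from Mlxipl) are the textbook transcriptional drivers of this route in liver.

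Libraries held 18882220 to 24098512 counts, with 14705 to 15594 symbols detected. Sesn3 was at 0.761, 0.695 and 0.689 CPM (the read count scaled to a common library size with TMM factors) in KO replicates 1 to 3 and at 9.0, 11.6 and 10.4 CPM in WT replicates 1 to 3, in keeping with every label. The liver label was checked on 9 hepatocyte markers, among them Alb and Apoa1, whose summed level was 135957 to 162195 CPM in KO and 113271 to 177299 CPM in WT. Alb alone had a mean of 76210 of 146487 CPM in KO and 71749 of 140659 CPM in WT, so the sum says little of the other markers. Of the 9, 5 were lower and 4 higher in KO. Every KO library lay below every WT library for Ttr and Apoa1, and above for Trf. Of 7 adipocyte markers, Lep and Plin1 had no counts in any library and Adipoq had 6 counts in KO replicate 2 and none elsewhere. Retn had 2 counts in KO replicate 2 only, and Cidea had 4, 6 and 2 counts in KO and 0, 0 and 4 in WT. Cfd had 0, 7 and 2 counts in KO and 15, 7 and 13 in WT. Adrb3, the 1 marker with enough counts to be tested, had 7, 14 and 6 in KO and 12, 46 and 16 in WT (log2 difference -1.89, edgeR adjusted p = 0.129). Genes were tested with edgeR's quasi-likelihood test over the 12945 genes that passed a filter on low counts, with Benjamini-Hochberg adjustment over all of them and a threshold of 0.05. In the text below a gene fell or rose only if it passed that threshold.

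Of the 30 genes, 28 had enough counts to be tested. Of these, 7 fell in KO and none rose: Thrsp, Acacb, Lpin1, Pklr, Acss2, Srebf1 and Slc25a1. They make 25% of the tested set, while 3.58% of all tested genes fell, 3.36% rose and 6.94% were called in either direction. Those were 463 falls and 435 rises, against 258 and 707 with library size only. The set was chosen with earlier results of these data known. Its share beside that of all genes is therefore a description and was not tested. The median log2 fold change of the 28 genes was -0.49, against 0.00267 over all tested genes, and 22 of the 28 were negative. In 14 of the 28 every KO library lay below every WT library, and in 1 (Acsl4) every KO library lay above. Over all tested genes the groups did not overlap in 33.5%, with KO below in 16.6% and KO above in 16.9%. At an unadjusted p below 0.05, 15 of the 28 were lower and 1, Acsl4, was higher, against 13.3% and 12.5% of all tested genes. By role, 3 of 4 tested carbon supply genes fell, 2 of 4 regulators, 1 of 4 synthesis enzymes (Acacb) and 1 of 10 glycerolipid genes (Lpin1), and none of 4 acyl-CoA ligases or 2 mitochondrial genes. These counts by role are descriptions, and the difference between roles was not tested. In whole liver, fewer cells of a type and less RNA per cell cannot be told apart.

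The number of falls depended on the libraries, both in the set and over all tested genes. Of all tested genes, 151, 53 and 131 fell without KO replicates 1, 2 and 3. The numbers were 458, 475 and 160 without WT replicates 1, 2 and 3. Of the 28 genes of the set, only Pklr passed without KO replicate 2 and only Pklr and Acss2 without KO replicate 1. Without KO replicate 3 these 2 and Thrsp passed. Leaving out each WT library in turn, 6 genes passed, but not all of them were genes called with all libraries. They included Mlxipl without WT replicate 1, Mlxipl and Fasn without WT replicate 2, and Mid1ip1 without WT replicate 3. DESeq2 called 12 of the 28 lower and none higher, against 8.20% and 7.11% of all tested genes. Beside the genes that fell with edgeR, these were Acly, Fasn, Mid1ip1, Mlxipl and Agpat2. Their DESeq2 adjusted p was 0.00477, 0.0346, 0.0172, 0.00286 and 0.00810. Limma-voom called 6 lower and none higher, against 3.35% and 3.19%.

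**Figure D1:**
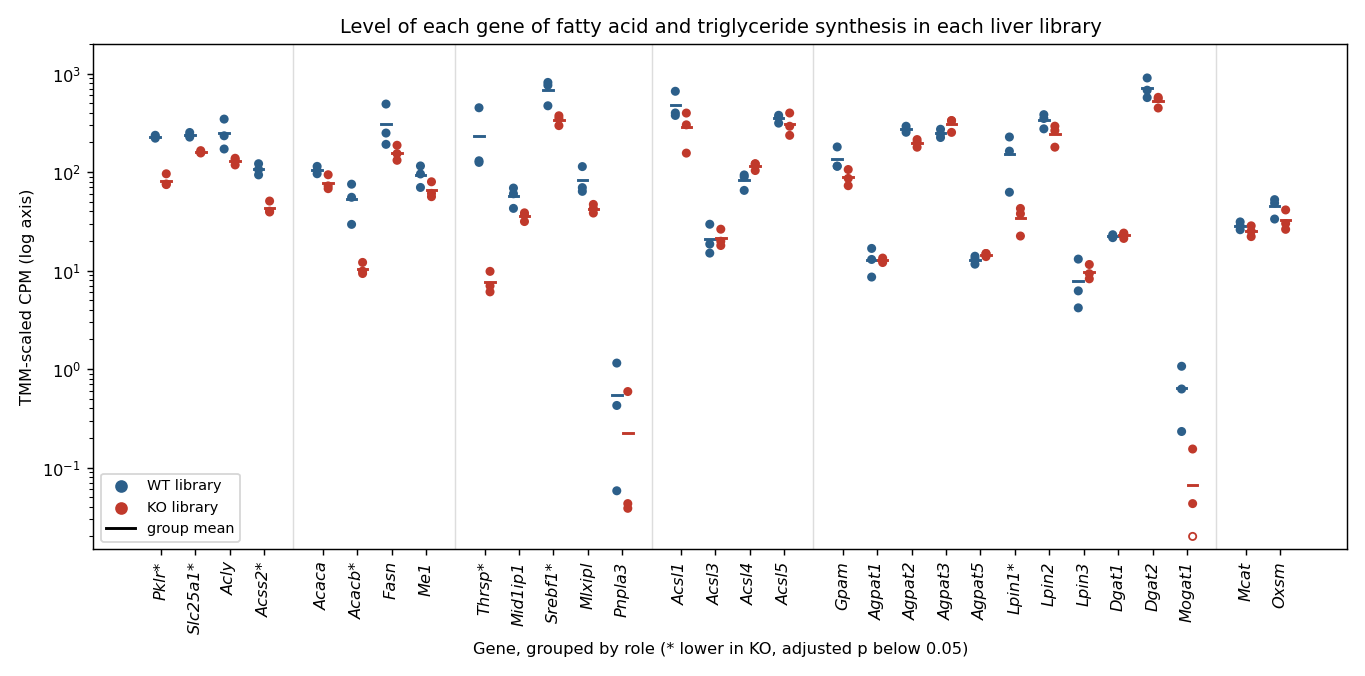
Level of each of the 30 genes (TMM-scaled CPM, log axis) in each WT (blue) and KO (red) library, grouped by role, with bars at the group means, asterisks at the 7 genes that fell and an open circle at the axis foot for a library with 0 counts. Thrsp shows the widest gap, with KO libraries at 6.09 to 9.82 CPM and WT libraries at 125 to 450 CPM, while Dgat1, at 21.2 to 24.04 CPM in all libraries, shows none.

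The sequence before the transcript start is shown for 6 of the 7 genes that fell, to let their promoters be compared. Srebf1 has 3 starts in the table used and is left out of the display. Each line gives the 150 bases before the start in RefSeq (GRCm38.p6, the same assembly as mm10), 5′ to 3′ on the gene's own strand. For Pklr, which has 2 starts, the downstream start is shown. The RefSeq starts of Thrsp, Acss2 and Acacb lie inside the gene bounds given below, which run over all annotated transcripts. Capitals mark CCAAT and its reverse complement ATTGG, the box that the factor NF-Y binds.
Thrsp, chr7:97417551-97417700, minus strand: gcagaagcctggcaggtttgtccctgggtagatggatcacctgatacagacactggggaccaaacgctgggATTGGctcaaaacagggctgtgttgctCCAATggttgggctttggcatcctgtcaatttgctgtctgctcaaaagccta
Pklr, chr3:89136473-89136622, plus strand: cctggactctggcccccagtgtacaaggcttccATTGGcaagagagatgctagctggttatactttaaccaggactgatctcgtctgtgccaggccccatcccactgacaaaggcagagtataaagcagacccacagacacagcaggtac
Acacb, chr5:114165368-114165517, plus strand: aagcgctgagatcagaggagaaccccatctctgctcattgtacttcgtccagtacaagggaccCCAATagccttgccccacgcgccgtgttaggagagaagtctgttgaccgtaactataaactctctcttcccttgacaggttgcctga
Acss2, chr2:155517893-155518042, plus strand: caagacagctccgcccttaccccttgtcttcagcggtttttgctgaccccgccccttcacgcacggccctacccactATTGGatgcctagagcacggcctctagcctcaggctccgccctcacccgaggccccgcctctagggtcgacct
Slc25a1, chr16:17928220-17928369, minus strand: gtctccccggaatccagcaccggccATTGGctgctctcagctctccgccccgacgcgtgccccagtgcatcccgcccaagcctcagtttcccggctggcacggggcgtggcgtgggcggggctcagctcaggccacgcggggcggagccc
Lpin1, chr12:16610967-16611116, minus strand: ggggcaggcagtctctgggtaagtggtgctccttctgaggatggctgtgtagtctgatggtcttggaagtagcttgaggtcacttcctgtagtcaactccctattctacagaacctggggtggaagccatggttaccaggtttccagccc
These stretches are not alike in composition: G and C make 74% of the Slc25a1 stretch and 52% of the Acacb stretch. Windows from 250 bases before to 50 after each start were then searched on both strands for CCAAT, for the GC box GGGCGG (bound by Sp1), for the E-box CACGTG (bound by USF and by ChREBP with Mlx), for the sterol response element TCACNCCAC (bound by SREBPs) and for the TATA box TATAAA. None of these 5 motifs contains another. RefSeq windows were found for 26 of the 30 genes, 39 windows in all, and Agpat5, Dgat1, Dgat2 and Mcat had none there. CCAAT was in a window of 6 of the 7 genes that fell and in one of 12 of the other 19 genes with a window, a count in which any window of a gene suffices. By window, CCAAT was in 48.7% of the 39 windows and in 37.4% of the 32851 windows of all genes. In Thrsp it occurred at 79 bases before the start, inverted, and again at 52 bases before the start. TATAAA was found in Pklr and Acacb only, at 31 and 34 bases before the start, or in 5.13% of the 39 windows against 13.6% of all windows. CACGTG was in windows of Slc25a1, Mlxipl, Lpin2 and Lpin3 (10.3% of the 39 windows and 7.15% of all), and TCACNCCAC in windows of Mlxipl and Acsl1 (5.13% and 1.24%). GGGCGG was in those of 3 of the 7 and of 14 of the 19 genes, or in 53.8% of the 39 windows against 35.7% of all windows. A match is a description of these letters and says nothing of binding.

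Carbon supply was the role with the most falls, 3 of 4 genes, with a median log2 fold change of -1.13. Pklr, the liver pyruvate kinase that closes glycolysis, lies on chromosome 3 from 89136142 to 89146784 (mm10). It was at 96.2, 74.7 and 75.7 CPM in KO replicates 1 to 3 and at 221, 237 and 229 CPM in WT replicates 1 to 3. The WT libraries lay within 1.07-fold of each other, and the lowest of them was 2.30 times the highest KO library. The log2 fold change was -1.48 (SE 0.14, edgeR adjusted p = 0.00421), and Pklr passed without each library in turn and under all 8 other settings. Of its exon length 22.0% is shared with the antisense gene Hcn3, which was at 0.0958 CPM in KO and 0.107 CPM in WT.

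Acss2, which makes acetyl-CoA from acetate (chromosome 2, 155517948 to 155585724), was at 39.3, 40.1 and 50.8 CPM in KO and at 122, 93.8 and 107 CPM in WT. Again no KO library reached the lowest WT library, and the log2 fold change was -1.31 (SE 0.15, edgeR adjusted p = 0.00655). Without KO replicate 2 the adjusted p was 0.0529. Exons of Acss2 overlap those of the antisense gene Gss, which had 141 CPM in KO and 110 CPM in WT and so lay in the other direction. Whether counting used strand is not given in the sources used here.

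Slc25a1, the mitochondrial citrate carrier (chromosome 16, 17925223 to 17928219), moved least of the 7. Its KO libraries were at 159, 156 and 165 CPM and its WT libraries at 237, 253 and 227 CPM, tight in both groups. The fall was 32.8% (log2 fold change -0.57, SE 0.12, edgeR adjusted p = 0.0314), but no fit without 1 library called it (the largest adjusted p was 0.146), nor did the fit with library size only. Acly, which splits the exported citrate, was at 138, 133 and 118 CPM in KO and at 345, 234 and 172 CPM in WT. The groups did not overlap, but WT replicate 1 was 2.01 times WT replicate 3, and the log2 fold change of -0.95 (SE 0.25) did not pass (edgeR adjusted p = 0.0616). The fold change was -0.63 on the log2 scale without WT replicate 1.

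Among the enzymes of fatty acid synthesis Acacb fell and Acaca, Fasn and Me1 did not pass. Acacb encodes the acetyl-CoA carboxylase of the outer mitochondrial membrane, whose malonyl-CoA restrains fatty acid entry into mitochondria, and lies on chromosome 5 from 114146535 to 114250761. It was at 9.34, 9.88 and 12.1 CPM in KO and at 55.5, 29.5 and 75.4 CPM in WT. The KO libraries lay close together and the WT libraries spread 2.56-fold, yet all WT values were above all KO values. Its log2 fold change was -2.36 (SE 0.33, edgeR adjusted p = 0.0132), with an adjusted p of 0.0690, 0.0750 and 0.0503 without KO replicates 1, 2 and 3.

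Acaca, the cytosolic carboxylase that feeds fatty acid synthase, was at 94.0, 68.0 and 72.4 CPM in KO and at 104, 114 and 96.3 CPM in WT. The lowest WT library was only 1.02 times the highest KO library, and the log2 difference of -0.42 (SE 0.15) was not called (edgeR adjusted p = 0.134). Fasn, the synthase itself, was at 187, 132 and 154 CPM in KO and at 491, 191 and 249.3 CPM in WT. The groups did not overlap, though WT replicate 2 was just above KO replicate 1. The log2 fold change was -0.98 (SE 0.35, edgeR adjusted p = 0.135), it was -0.48 without WT replicate 1, and the gene passed without WT replicate 2 (adjusted p = 0.0458). Me1, the malic enzyme that supplies NADPH, was at 56.3 to 79.8 CPM in KO and at 69.9 to 116 CPM in WT, which overlap (log2 -0.51, SE 0.21, adjusted p = 0.183).

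All 4 tested regulators had negative fold changes, and 2 of them fell. Thrsp, known as Spot 14, is a small nuclear and cytosolic protein that pairs with the product of Mid1ip1 and affects acetyl-CoA carboxylase. It lies on chromosome 7 from 97412938 to 97417730. It was at 6.09, 6.98 and 9.82 CPM in KO and at 450, 125 and 130 CPM in WT. Even the lowest WT library was 12.8 times the highest KO library, while WT replicate 1 stood 3.59-fold above WT replicate 2. The log2 fold change of -4.95 (SE 0.60, edgeR adjusted p = 0.00873) ranked 11 in size among the 463 falls. It was -4.06 without WT replicate 1, and the adjusted p was 0.0504 and 0.0595 without KO replicates 1 and 2. Mid1ip1, its paralog, was at 36.8, 38.6 and 31.5 CPM in KO and at 68.9, 60.3 and 42.8 CPM in WT. These did not overlap, but the log2 difference of -0.69 (SE 0.18) missed the threshold (edgeR adjusted p = 0.0655), and it passed without WT replicate 3 (0.0481).

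Srebf1, which encodes SREBP-1a and SREBP-1c (chromosome 11, 60199089 to 60222581), was at 373, 297 and 351 CPM in KO and at 814, 762 and 472 CPM in WT. WT replicate 3 sat well below the other WT libraries and still above every KO library. Its log2 fold change of -1.004 (SE 0.23) was just past the threshold (edgeR adjusted p = 0.0465). It was lost in every fit without 1 library except that without WT replicate 3 (largest adjusted p 0.175), and with upper-quartile factors or library size only. Mlxipl, encoding ChREBP, was at 38.4, 42.7 and 47.0 CPM in KO and at 63.8, 114 and 69.6 CPM in WT. It lay just outside the threshold, at a log2 fold change of -0.95 (SE 0.23, edgeR adjusted p = 0.0511). Mlxipl passed without WT replicate 1 (0.0352) or WT replicate 2 (0.0326), and under 4 of the 8 other settings, DESeq2 among them. The log2 fold change was -0.64 without WT replicate 2. Counts are per gene, so the SREBP-1 and ChREBP isoforms were not told apart.

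Pnpla3, a lipase-like gene under SREBP-1 control, was almost absent. KO replicates 1 to 3 held 14, 1 and 1 counts of it and WT replicates 1 to 3 held 22, 1 and 8, too few to be tested. Each group thus held a library with 1 count, and the highest KO library was above the second WT library.

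**Figure D2:**
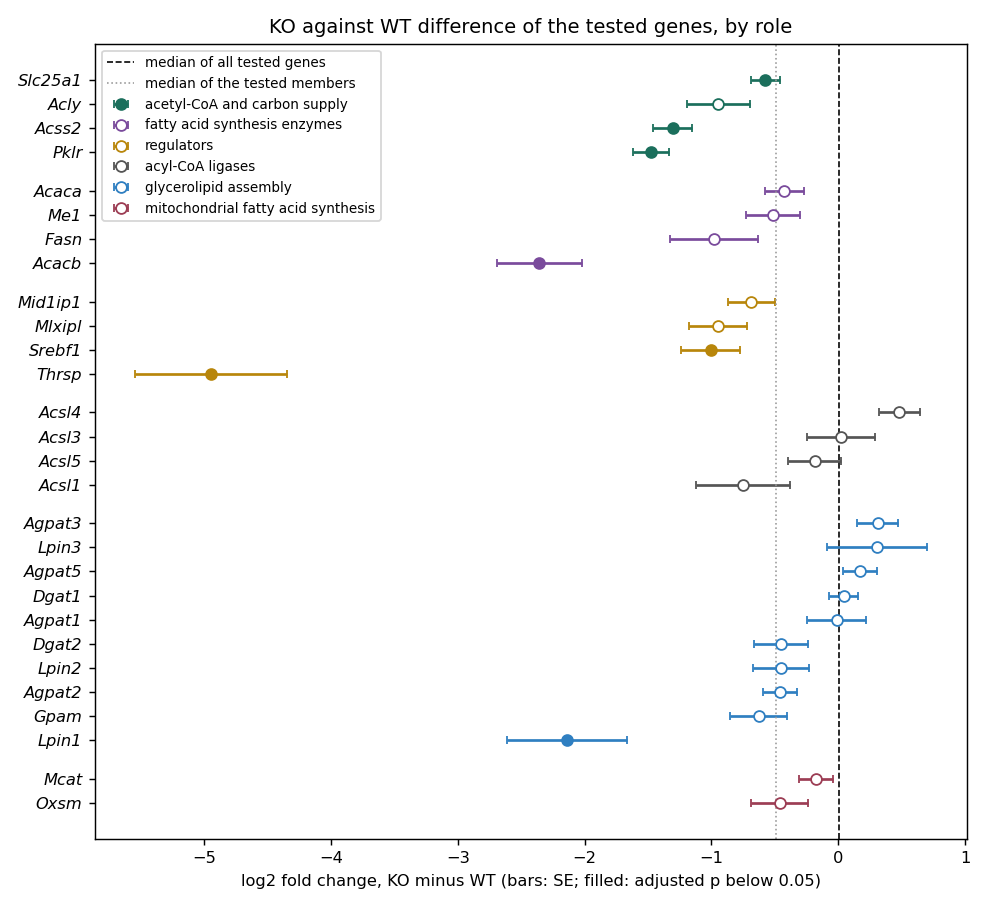
Log2 fold change, KO minus WT, of the 28 tested genes with its SE, coloured by role, with filled circles for an edgeR adjusted p below 0.05 and lines at the median of all tested genes (dashed, 0.00267) and of the 28 genes (dotted, -0.49). The carbon supply, synthesis and regulator genes lie left of 0, and the acyl-CoA ligases and glycerolipid genes lie on both sides.

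The acyl-CoA ligases, which activate fatty acids before they are esterified or oxidised, had no call in either direction with edgeR, DESeq2 or limma-voom, and 1 of the 4, Acsl4, had an unadjusted p below 0.05. Acsl4, which prefers arachidonate, was at 121, 122 and 104 CPM in KO and at 89.5, 65.2 and 93.6 CPM in WT. It was the only tested gene of the set whose KO libraries were all above the WT libraries, at a log2 difference of 0.48 (SE 0.16, edgeR adjusted p = 0.116). Acsl1, the main ligase of hepatocytes, was at 156, 302 and 398 CPM in KO and at 399, 662 and 376 CPM in WT. KO replicate 1 was far below the other KO libraries, the groups overlapped, and the log2 difference was -0.75 (SE 0.37, adjusted p = 0.252). Acsl5 and Acsl3 differed by -0.19 (SE 0.21) and 0.02 (SE 0.27) on the log2 scale, with overlapping groups and with a sign that turned under library size only for Acsl5 and without 3 of the libraries for Acsl3.

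Glycerolipid assembly had 1 call among 10 tested genes, and 6 of the 10 were negative, Agpat1 among them at -0.01, with a median log2 fold change of -0.23. The call was Lpin1 (chromosome 12, 16535669 to 16610966), a phosphatidate phosphatase that makes diglyceride and also acts as a transcriptional coactivator. It was at 22.4, 42.8 and 37.8 CPM in KO and at 62.5, 227 and 163 CPM in WT. WT replicate 1 was 3.64-fold below WT replicate 2, the reverse of their order for Thrsp, Fasn and Acly, and still above each KO library. The log2 fold change was -2.14 (SE 0.47, edgeR adjusted p = 0.0440), and only the fit without WT replicate 1 kept the call (largest adjusted p 0.139 in the other 5 fits). Limma-voom gave an adjusted p of 0.0536. Its paralogs were not called. Lpin2 had a log2 difference of -0.45 (SE 0.22, edgeR adjusted p = 0.240), of the same sign as that of Lpin1. Lpin3 had one of 0.31 (SE 0.40, adjusted p = 0.667), and the groups overlapped for both paralogs.

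None of the 5 acyltransferases of the earlier steps passed with edgeR, while Gpam and Agpat2 were lower at an unadjusted p below 0.05. DESeq2 called Agpat2 alone and limma-voom none. Gpam, the mitochondrial enzyme of the opening step, was at 72.8 to 106 CPM in KO and at 115 to 180 CPM in WT, without overlap and without a call (log2 -0.63, SE 0.22, edgeR adjusted p = 0.131). Agpat2, the phosphatidate-forming enzyme whose loss causes lipodystrophy in people, was at 179, 201 and 214 CPM in KO and at 272, 292 and 254 CPM in WT. It was below in every KO library at a log2 difference of -0.46 (SE 0.13, adjusted p = 0.0798), and DESeq2 called it (0.00810). Agpat3 was at 253, 332 and 334 CPM in KO and at 244, 272 and 225 CPM in WT, with 1 KO library inside the WT range (log2 0.31, SE 0.16, adjusted p = 0.272). Agpat5 and Agpat1 differed by 0.17 (SE 0.13) and -0.01 (SE 0.23) on the log2 scale, and the sign for Agpat1 turned with upper-quartile factors, library size only and limma-voom.

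For the final step, Dgat2 was the most abundant gene of the set per kilobase of exon. It was at 448, 574 and 556 CPM in KO and at 679, 904 and 571 CPM in WT, where KO replicate 2 reached WT replicate 3 (log2 -0.45, SE 0.21, edgeR adjusted p = 0.232). Dgat1, the other diglyceride acyltransferase, was at 21.2 to 24.04 CPM in all 6 libraries, with a log2 difference of 0.04 (SE 0.11, adjusted p = 0.847). Mogat1, a monoglyceride acyltransferase, had 0, 4 and 1 counts in KO and 12, 4 and 20 counts in WT and was not tested. Its summed rate was 9.52-fold higher in WT (exact 95% interval 3.72 to 31.1), an interval that covers counting error only and not the spread between samples.

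Mcat and Oxsm, the transferase and condensing enzyme of the separate mitochondrial route that supplies lipoate, were also not called by edgeR, DESeq2 or limma-voom, and neither had an unadjusted p below 0.05. Mcat was at 22.1 to 28.5 CPM in KO and at 26.0 to 31.2 CPM in WT, and Oxsm at 26.2 to 41.3 CPM in KO and at 33.4 to 52.6 CPM in WT. Both pairs of ranges overlap, at log2 differences of -0.18 (SE 0.14) and -0.46 (SE 0.22). For Mcat the sign turned with library size only.

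Levels were compared between genes per kilobase of exon, since counts grow with transcript length. In WT, Dgat2 stood at 233 ± 55.1 CPM per kb (SD, n = 3), Agpat2 at 128 ± 9.01, Srebf1 at 121 ± 32.8, Slc25a1 at 110 ± 6.04 and Thrsp at 108 ± 85.02. Among the last 4, each step in that order was smaller than the larger SD of the 2 neighbours. Thrsp was at rank 5 of 30 in WT and at rank 25 in KO, at 3.49 ± 0.891 CPM per kb (SD, n = 3). Lpin1 went from rank 16 to rank 24, and Pklr from rank 7 to rank 8. Exon length was the union over all annotated transcripts, so the level of genes with long unused exons is understated. Summed over all 30 genes, KO libraries held 3224 to 3600 CPM and WT libraries 4706 to 5754 CPM.

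Ratios of 2 genes within a library do not depend on how libraries are scaled, and 10 pairs were compared. In 6 pairs the genotypes did not overlap, and the exact two-sided permutation test gave p = 0.10, the smallest that 3 against 3 can reach (0.167 adjusted over the 10 pairs). Single genes did not overlap in 33.5% of all tested genes, and 4 of the 6 pairs hold a gene that fell by itself. That share is for scaled levels of single genes. No share over other pairs of genes was computed, so the 6 of 10 have no background of their own kind. The Thrsp to Mid1ip1 count ratio was 0.165, 0.181 and 0.312 in KO and 6.54, 2.08 and 3.04 in WT, far apart relative to the spread in either group. The Acacb to Acaca ratio was 0.0993, 0.145 and 0.167 in KO and 0.535, 0.258 and 0.783 in WT, a shift of -1.83 on the log2 scale toward the cytosolic carboxylase. The Lpin1 to Lpin2 ratio was 0.125 to 0.146 in KO and 0.227 to 0.649 in WT, and the Lpin1 to Lpin3 ratio 1.95 to 5.18 in KO and 10.03 to 54.3 in WT.

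The Agpat2 to Agpat3 count ratio varied little within groups. It was 0.707, 0.607 and 0.641 in KO and 1.11, 1.07 and 1.13 in WT, without overlap, while neither gene passed the threshold by itself. Per kilobase of exon, Agpat2 was above Agpat3 in both genotypes, at 93.0 against 39.3 CPM per kb in KO and at 128 against 31.7 CPM per kb in WT. The Dgat1 to Dgat2 ratio was 0.0409 to 0.0474 in KO and 0.0256 to 0.0386 in WT. By contrast, the Srebf1 to Mlxipl ratio was 8.04 ± 1.47 in KO and 8.74 ± 3.48 in WT (SD, n = 3 each; exact permutation p = 1.0). The Acly to Acss2, Acsl1 to Acsl5 and Acsl3 to Acsl4 ratios also overlapped between genotypes.

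**Figure D3:**
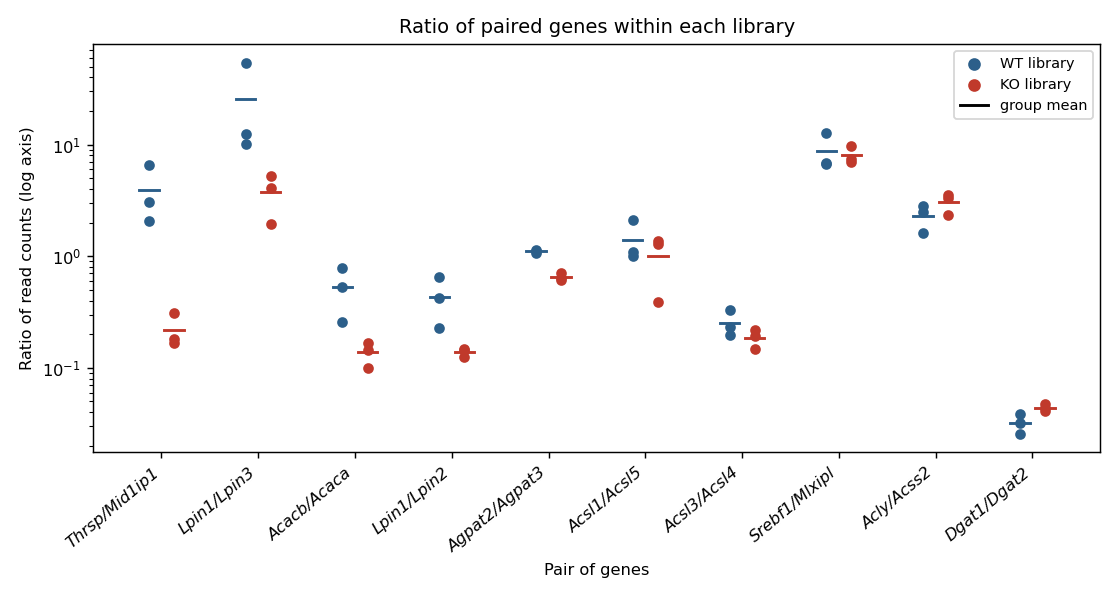
Ratio of read counts of 2 genes within each WT (blue) and KO (red) library, on a log axis, with bars at group means, for 10 pairs ordered by the log2 shift. Groups are apart for Thrsp/Mid1ip1, Lpin1/Lpin3, Acacb/Acaca, Lpin1/Lpin2, Agpat2/Agpat3 and Dgat1/Dgat2, and overlap for the other 4 pairs.

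Other genes of the route were read from fixed lists. For all lists below, the shares of all tested genes lower and higher in KO were 3.58% and 3.36% with edgeR. They were 8.20% and 7.11% with DESeq2, 3.35% and 3.19% with limma-voom, and 13.3% and 12.5% at an unadjusted edgeR p below 0.05. In the supply of acetyl-CoA from glucose and fructose 4 of 17 tested genes fell and none rose with edgeR, with a median log2 fold change of -0.25. Of rises, 1 had an unadjusted p below 0.05, DESeq2 called 1 and limma-voom 0. Khk, the ketohexokinase that commits fructose, was at 183, 173 and 192 CPM in KO and at 483, 509 and 455 CPM in WT. That is a clean separation, and with a log2 fold change of -1.40 (SE 0.13, edgeR adjusted p = 0.00421) Khk passed in each fit without 1 library. Tkfc, which phosphorylates the glyceraldehyde from fructose, fell by 0.85 on the log2 scale, Pdhb, a pyruvate dehydrogenase subunit, by 0.65, and Pdk1, a kinase that inhibits that complex, by 1.20. Pdk1 lost its call without KO replicate 2 or WT replicate 3, and Tkfc and Pdhb theirs without any 1 KO library or WT replicate 3, Tkfc also without WT replicate 1.

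Of 7 NADPH genes, Idh1, the cytosolic isocitrate dehydrogenase, fell by 0.77 on the log2 scale (SE 0.16, edgeR adjusted p = 0.0332) and Nnt, the mitochondrial transhydrogenase, rose by 0.63 (SE 0.13, adjusted p = 0.0338). Idh1 passed in 1 of the 6 fits without a library and Nnt in 2. Of 15 desaturases and elongation enzymes 4 fell and none rose with edgeR: Scd1, Elovl3, Elovl6, which extends palmitate, and Tecr, the reductase of the elongation cycle. Of rises, 2 had an unadjusted p below 0.05, DESeq2 called 1 and limma-voom 0. Elovl6 was at 23.1, 19.6 and 24.7 CPM in KO and at 68.7, 38.9 and 59.4 CPM in WT, so that the fall was clear of the WT spread (log2 -1.31, SE 0.21, adjusted p = 0.0182). It passed without WT replicate 1 or WT replicate 2 and in no other fit with 1 library left out. In those fits Tecr, which fell by 0.65 on the log2 scale, did not pass, Scd1, which fell by 1.36, passed in 1, and Elovl3, which fell by 5.41, passed in 2 and moved to -4.01 without WT replicate 2. Elovl3 ran from 16.5 to 191 CPM among WT libraries, and its call was also lost with limma-voom (adjusted p = 0.103) and with no filter on low counts.

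Of 21 genes that control SREBP-1 and ChREBP, 2 fell and none rose with edgeR, with a median log2 fold change of -0.14. These falls made 9.52% of the list, while 3.58% of all tested genes fell and 6.94% were called in either direction. Of rises, 2 had an unadjusted p below 0.05, DESeq2 called 1 and limma-voom 0. Insig1, an SREBP target that retains the SREBP escort protein in the endoplasmic reticulum, was at 55.7, 35.4 and 38.1 CPM in KO and at 264, 126 and 90.7 CPM in WT. Its order among WT libraries, with replicate 1 highest and replicate 3 lowest, was that of Srebf1 and Acly. The log2 fold change of -1.89 (SE 0.41, edgeR adjusted p = 0.0405) was -1.32 without WT replicate 1, and the call was lost without any 1 KO library. Trib1, a pseudokinase, fell by 0.52 and lost its call in each fit without 1 library. The list of 8 LXR targets left out Srebf1 and Scd1, which were counted elsewhere and fell. On this list 1 gene rose and none fell with edgeR, DESeq2 or limma-voom, and 1 was lower at an unadjusted p below 0.05. Pltp, the phospholipid transfer protein, was at 185, 168 and 199 CPM in KO and at 83.5, 75.0 and 51.5 CPM in WT (log2 1.39, SE 0.19, adjusted p = 0.0109), and the adjusted p was 0.0530 without KO replicate 2.

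Among 17 other tested glycerolipid and acyl-CoA genes, 2 rose and 1 fell. The risers included Agpat9, the current Gpat3, which encodes a glycerol-3-phosphate acyltransferase of the endoplasmic reticulum. It was at 45.6, 42.8 and 40.8 CPM in KO and at 9.31, 5.52 and 13.6 CPM in WT, every KO library far above the highest WT library. Its log2 fold change was 2.18 (SE 0.29, edgeR adjusted p = 0.0113), and the adjusted p was 0.0589 without KO replicate 2. Gpam, at the same step, was opposite in sign but not called. Agpat6, the current Gpat4, was more abundant than Agpat9, at 142, 270 and 283 CPM in KO and at 305, 395 and 293 CPM in WT. It was also negative and not called (log2 -0.51, SE 0.27, adjusted p = 0.284). Ppap2c, the current Plpp2, a lipid phosphate phosphatase, rose by 1.21 on the log2 scale (SE 0.19, adjusted p = 0.0154), and lost its call without KO replicate 1 or 2. Slc27a5, a bile acid and fatty acid ligase, fell by 1.14 (SE 0.26, adjusted p = 0.0464) and lost its call in each fit without 1 library. None of 8 other mitochondrial fatty acid synthesis genes was called by edgeR, DESeq2 or limma-voom, and 1 was lower at an unadjusted p below 0.05. With library size only, Idh1, Tkfc, Pdhb, Scd1, Tecr, Insig1 and Trib1 were not called.

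Markers of other cells and zones moved with genotype beside these genes. Of 9 tested pericentral markers 5 fell, against 3.58% of all tested genes, and 8 of the 9 had negative fold changes. The 9 summed to 1953 to 4615 CPM in KO and 9668 to 13571 CPM in WT. Most of this sum was Cyp2e1, at a mean of 2129 of 3327 CPM in KO and 8225 of 11859 CPM in WT. Cyp2e1 fell by 1.95 on the log2 scale and lost its call in each fit without 1 library. Glul and Slc1a2, which mark the hepatocytes around the central vein, fell, at log2 fold changes of -1.85 and -2.58, and kept their calls without each library. Cyp1a2 fell by 1.54 (lost without KO replicate 2). Periportal markers summed to 3889 to 9121 CPM in KO and 7524 to 11130 CPM in WT, which overlap, with 1 of 8 lower (Cyp2f2) and 1 higher (Cdh1).

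Against 3.36% of all tested genes, 4 of 8 stellate cell and fibroblast markers rose, among them Col1a1, Col1a2 and Col3a1. The list summed to 931 to 1209 CPM in KO and 302 to 501 CPM in WT. Of 9 macrophage markers 2 rose, Clec4f and Trem2, with sums of 2459 to 2949 CPM in KO and 930 to 2320 CPM in WT. Each of these 5 genes lost its call without any 1 KO library or WT replicate 3. Endothelial markers summed to 131 to 295 CPM in KO and 261 to 355 CPM in WT, cholangiocyte markers to 97.6 to 114 and 53.8 to 98.3 CPM, lymphocyte markers to 7.99 to 11.3 and 9.08 to 20.2 CPM, and adipocyte markers to 0.431 to 1.35 and 1.41 to 3.08 CPM. The part of these shifts in the differences of the lipogenic genes was not tested.

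**Figure D4:**
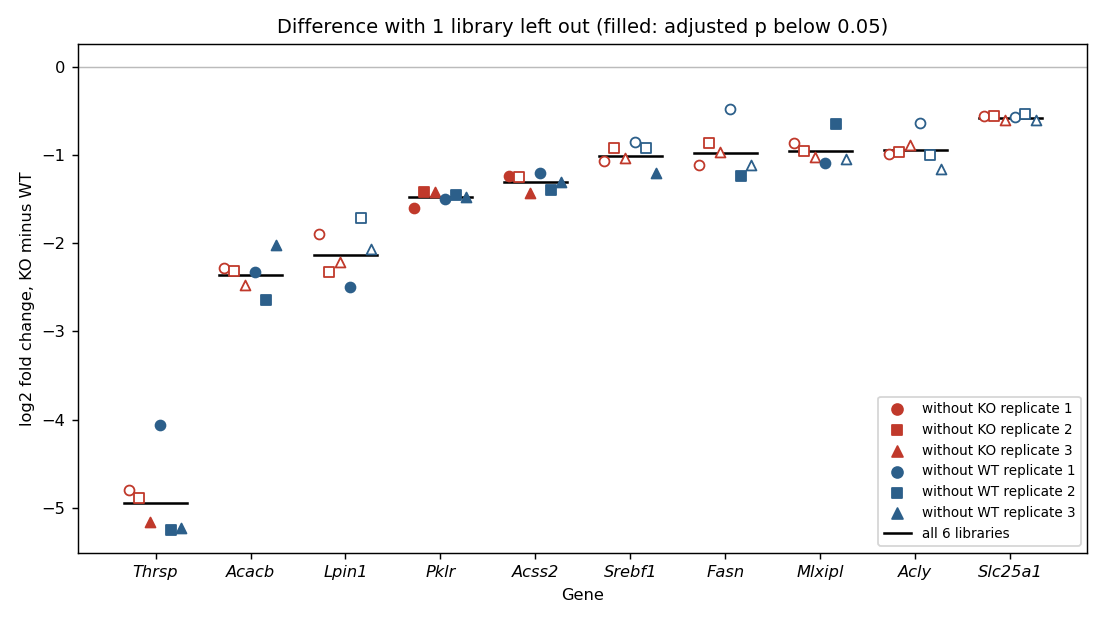
Log2 fold change, KO minus WT, of 10 genes with all 6 libraries (black line) and with each library left out in turn (red for KO, blue for WT, the shape giving the replicate), filled where the edgeR adjusted p stayed below 0.05. Pklr is filled in all 6 fits and Slc25a1 in none, and leaving out WT replicate 1 moves Thrsp to -4.06 and Fasn to -0.48.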

How the data were processed

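RNA of 6 mouse liver samples had been sequenced. The values that the authors deposited are raw read counts, whole numbers per gene symbol with 1 column for each library. The submitters' processing notes name the build mm10 and, as tools, STAR 2.5, Subread 1.5.3 with featureCounts, and edgeR 3.20.8. What each tool did, the annotation, the strand setting and the handling of multi-mapped reads are not stated there. Genotype labels gave the groups, and replicate numbers follow accession order and only name a library.

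The whole table was fitted with edgeR 4.0.16 in R 4.3.3, using filterByExpr (minimum count 10, minimum total 15), TMM factors, a robust quasi-likelihood F-test and Benjamini-Hochberg adjustment. The SE was obtained from the fold change and the F statistic. The biological coefficient of variation common to all genes was 0.232. Counts of libraries in 1 group differed by a chi-square of 21.5 to 134 per degree of freedom, so none repeats another. Alternative settings were RLE factors, upper-quartile factors, library size only, no filter or at least 1 CPM in 3 libraries, no robust dispersion, DESeq2 1.42.0, limma-voom (limma 3.58.1) and every fit that lacks 1 library. The fitting code was tested on simulated data.

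Positions and exon lengths came from GENCODE mouse release M21 (mm10) by symbol, and promoters from RefSeq (GRCm38.p6). Through RefSeq synonyms 6 list symbols were matched, among them Gpat3 to Agpat9 and Plpp2 to Ppap2c, and Hsd17b8 had no match. All 30 genes of the set are named, with up to 6 called genes of each pathway list and up to 3 of each marker list, by smallest p. Cyp2e1 is also named, because it made most of the pericentral sum. Agpat6 is named beside Agpat9, and hepatocyte and adipocyte markers are named where the liver label was checked. The set and the lists were chosen with earlier results of these data known.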

Additional observations from a re-analysis of the deposited data

How the results depend on the processing

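The set kept 0 rises under each alternative, and its falls, 7 as reported, numbered 12 with DESeq2, 5 to 8 under the other 7 settings and 1 to 6 without 1 library. The median log2 fold change of the tested genes of -0.49 was -0.28 with library size only, where the median of all genes shifted to 0.21, and without 1 library it ran from -0.60 to -0.47. Over all genes 463 fell and 435 rose as reported, 258 and 707 with library size only, 1061 and 921 with DESeq2, and 53 to 475 and 48 to 504 without 1 library. Sesn3 stayed between -3.93 and -3.75 without 1 library. Over the 28 genes, 22 of 168 values without 1 library lost a call and 4 gained one, and 5 of 224 values under the other settings lost and 8 gained one. Only the 7 genes that fell could lose a call, each over 6 fits without 1 library and 8 other settings. The 168 and 224 values also hold the genes without a call and so understate the share of calls lost. Of the log2 fold changes of these genes and the 10 ratios, 4 genes and 1 ratio changed sign. Without 1 library Acsl3 ran from -0.17 to 0.35, Agpat1 from -0.23 to 0.24 and the Srebf1 to Mlxipl shift from -0.22 to 0.24. Acsl3 was at -0.15 without KO replicate 1, -0.17 without WT replicate 2 and -0.06 without WT replicate 3. Agpat1 was at 0.037 with upper-quartile factors, 0.19 under library size only, 0.026 with limma-voom, 0.024 without KO replicate 2, 0.24 without WT replicate 1 and 0.0019 without WT replicate 3. With library size only Acsl5 was at 0.028 and Mcat at 0.031. The Srebf1 to Mlxipl log2 shift of -0.07 was 0.031 without KO replicate 2 and 0.24 without WT replicate 1. Except where the construction shows it (fewer samples, no scaling factors), the cause was not tested. No paired analysis was possible because the labels carry no replicate numbers. Low counts kept Pnpla3 and Mogat1 from being tested.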

Other observations

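No single WT library was highest for most of the 28 tested genes. WT replicate 1 was highest for 9 of them, WT replicate 2 for 11 and WT replicate 3 for 8. Those 9 were Acly, Acss2, Fasn, Thrsp, Mid1ip1, Srebf1, Acsl3, Gpam and Agpat1. The tally also counts genes whose WT libraries hardly differ, such as Pklr and Dgat1 at about 1.07-fold from lowest to highest. The median coefficient of variation of the 28 genes was 14.7% in KO and 23.4% in WT, against 13.3% and 16.7% over all tested genes. It was larger in WT than in KO for 17 of the 28 genes (60.7%). The share was 61.9% of the 12942 tested genes with a value in both groups, so a larger WT spread was not particular to the set. Thrsp, Lpin3, Lpin1 and Fasn varied most in WT, at 79.1%, 59.5%, 55.0% and 51.2%, and Pklr and Dgat1 least, at 3.38% and 3.52%.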
